A study of Homo sapiens with 3 samples.

Results

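Accessible chromatin was examined at 8 genes of the synaptic vesicle release machinery in human neurons: SYN1, SYN2, SYN3, STX1A, SNAP25, VAMP1, VAMP2 and SYT1, of 20037 protein-coding genes in the RefSeq table. The genes were given by name, and every accessible region with a summit inside the RefSeq gene body, or within 50 kb of its outer ends, was taken as belonging to a gene's window. This gave 78 regions with 175 summits, of 65234 regions with 145092 summits in the whole list, and no region fell into the windows of more than 1 gene. Open chromatin had been profiled by ATAC-seq, in which the Tn5 enzyme cuts and tags accessible DNA, in neurons made over 14 days from KOLF2.1J, a widely shared reference line of human induced pluripotent stem cells, with the neurogenic transcription factor NGN2. The 3 samples are biological replicates of this single group, from 1 line, so there is no untreated or other control group. The authors combined them into 1 peak list without a value per replicate, so no spread between replicates can be given, no difference below carries a replicate test, and intervals cover counting error only.

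A presynaptic terminal releases transmitter when a docked vesicle fuses with the plasma membrane. Synapsins tether vesicles in a reserve pool, the SNARE proteins of the vesicle (synaptobrevins, encoded by the VAMP genes) and of the plasma membrane (syntaxin and SNAP25) zip together to drive fusion, and synaptotagmin senses the calcium that triggers it. Several of these genes are classical neuronal genes, and the SYN1 promoter is widely used to drive transgenes in neurons. The repressor REST, which silences neuronal genes in other tissues, recognises an element called RE1.

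The starts of 6 of the 8 genes were matched to RefSeq promoter windows (GRCh38.p14), each with 250 bases before and 50 bases after an annotated start. Of these, 4 are shown 5′ to 3′ on the strand of the gene, because they hold the RE1 and CRE words (SYN1), the densest run of SP1 words (STX1A) and the most and the least accessible starts of the 8 genes (VAMP1 and VAMP2). Capitals mark the words TTCAGCACC and GGACAG (the left and right arms of RE1), TGACG (the core of the cAMP response element, CRE), CAGATG (an E-box of the kind that NGN2 and NEUROD factors bind) and GGGCGG (the SP1 word), on either strand, and touching words run together. The windows are SYN1 at chrX:47619808-47620107 (minus strand), STX1A at chr7:73719620-73719919 (minus), VAMP1 at chr12:6470628-6470927 (minus) and VAMP2 at chr17:8162899-8163198 (minus). VAMP2 has 2 annotated starts, and its words are given only for the window shown.
SYN1: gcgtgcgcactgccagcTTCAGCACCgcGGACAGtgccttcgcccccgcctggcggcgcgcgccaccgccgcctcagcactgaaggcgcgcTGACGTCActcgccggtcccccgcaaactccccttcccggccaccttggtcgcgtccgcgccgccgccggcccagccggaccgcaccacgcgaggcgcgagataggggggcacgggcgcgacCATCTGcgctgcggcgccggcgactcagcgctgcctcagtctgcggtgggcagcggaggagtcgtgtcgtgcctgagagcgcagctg
STX1A: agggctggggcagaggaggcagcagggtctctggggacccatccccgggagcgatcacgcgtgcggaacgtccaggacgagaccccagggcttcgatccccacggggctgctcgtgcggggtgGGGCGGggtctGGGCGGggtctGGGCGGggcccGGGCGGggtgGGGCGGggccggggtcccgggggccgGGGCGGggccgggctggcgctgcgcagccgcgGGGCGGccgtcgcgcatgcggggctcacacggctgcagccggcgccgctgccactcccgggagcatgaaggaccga
VAMP1: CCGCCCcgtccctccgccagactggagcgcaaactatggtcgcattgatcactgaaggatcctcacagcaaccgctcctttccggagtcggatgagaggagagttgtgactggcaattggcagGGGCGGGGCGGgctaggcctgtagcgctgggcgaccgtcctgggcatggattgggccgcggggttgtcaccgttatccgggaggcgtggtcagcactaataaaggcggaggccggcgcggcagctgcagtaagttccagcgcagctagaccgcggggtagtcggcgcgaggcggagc
VAMP2: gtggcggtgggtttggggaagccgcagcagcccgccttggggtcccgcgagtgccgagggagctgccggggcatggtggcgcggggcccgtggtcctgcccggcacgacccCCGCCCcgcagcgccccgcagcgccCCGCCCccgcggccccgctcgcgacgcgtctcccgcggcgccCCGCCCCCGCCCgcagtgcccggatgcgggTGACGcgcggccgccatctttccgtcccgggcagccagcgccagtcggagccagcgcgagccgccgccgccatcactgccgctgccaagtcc

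SYN1 alone of the 6 windows held both arms of RE1, in the arrangement TTCAGCACCGCGGACAG from 233 to 217 bases before the start, with 2 bases between the arms. The left arm occurred in 0.376% of the 35116 RefSeq promoter windows and the right arm in 20.5%, and 40 windows (0.114%) held both. SYN1 also held the full CRE word TGACGTCA from 159 to 152 bases before the start, a word found in 1.85% of windows. It had a CAGATG word at 37 to 32 bases before the start, which 14.7% of all windows hold, and no SP1 word. The strongest ATAC summit of SYN1 lay 165 bp before the start, between the RE1 arms and the CRE word. A match is a description of letters and does not show that a factor was bound.

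The SP1 word occurred in the other 5 windows and in 45% of all windows. STX1A held 7 copies from 127 to 21 bases before its start, SYN2 and VAMP2 held 4 each, VAMP1 held 3 and SYT1 held 1. The CRE core TGACG, present in 24.6% of all windows, was found in SYN1 and VAMP2, and the right RE1 arm was found alone in SYT1. Any E-box (CANNTG, in 68.7% of windows) was found in SYN1 and VAMP1 alone.

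The promoters were rich in G and C. The GC content was 75.3% for SYN1, 75% for SYN2, 79.3% for STX1A, 65.3% for VAMP1, 80.7% for VAMP2 and 62.0% for SYT1, against a median of 58.7% over all windows. The ratio of observed to expected CpG was lowest for SYT1, at 0.52, and highest for SYN1, at 1.09, with a median of 0.58 over all windows. When all windows were divided into 5 equal classes by GC content, 4 of the 6 genes fell in the highest class, where 89.8% of windows had an accessible region within 1 kb of the start. VAMP1 was in the next class, where the share was 78.4%, and SYT1 in the class after it, where it was 59.1%; in the class of lowest GC the share was 16.2%.

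All 8 genes had an accessible region at their start. For the 6 genes with a promoter window, the summit had to lie within 1 kb of an annotated start, a condition that 72.4% of 15843 protein-coding genes met. For SYN3 and SNAP25 the accessible outer end stands in for the start, and 68.8% of all 20037 protein-coding genes had a region within 1 kb of an outer end. With a background this high, 8 of 8 does not set these genes apart. What differed among them was the level. Fold enrichment, the authors' value for a summit over its local background, had a median of 9.97 over the 8 starts and ranged from 4.84 to 13.6, and the median over 11463 accessible starts was 10.8, with quartiles at 7.41 and 13.5. Only SYN2 and VAMP1 lay above that median by fold enrichment, and only SYT1 and VAMP1 by tag count, the number of sequenced tags piled up at the summit, recovered from the authors' values. The fold enrichment intervals of SYN1, SYN2 and SYT1 all spanned the median of 10.8, so on that scale only VAMP1 was above it beyond counting error.

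**Figure D1:**
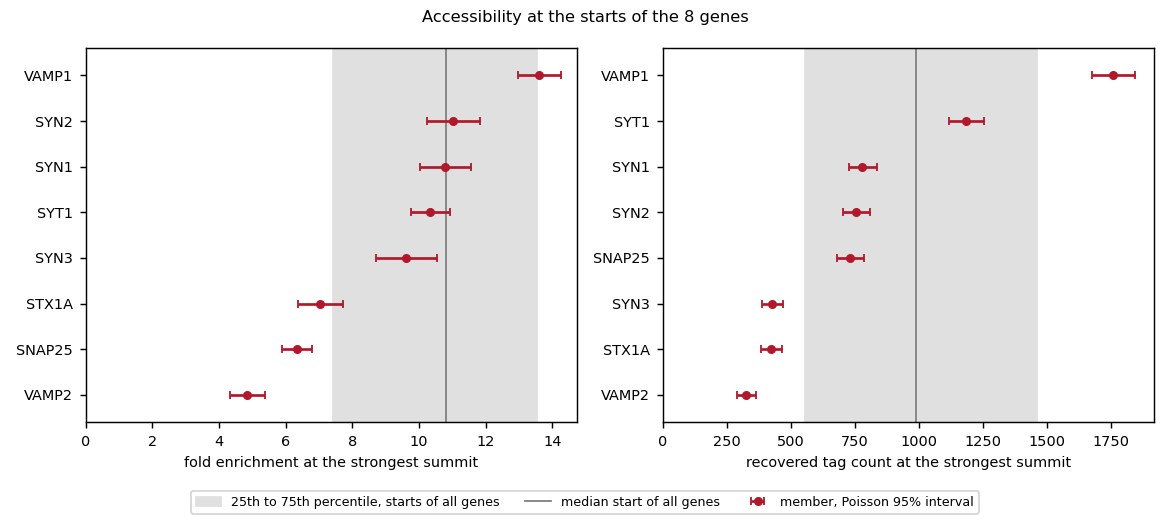
Fold enrichment (left) and recovered tag count (right) at the strongest summit within 1 kb of the start of each gene, with exact Poisson 95% intervals as bars; the grey band spans the quartiles and the grey line the median of 11463 accessible gene starts. VAMP1 is highest on both scales and VAMP2 lowest on both.

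Among the synapsins, which coat vesicles and hold them in the reserve pool, SYN1 and SYN2 were alike and SYN3 lower in tags. The SYN1 start region (chrX:47619506-47620324) had a fold enrichment of 10.8 and 779 tags at its summit (exact Poisson 95% interval 725 to 836). The SYN2 start region (chr3:12003650-12005139) had a fold enrichment of 11.0 and 755 tags (702 to 811), with its summit 45 bp before the start. At SYN3 (chr22:33057676-33058590) the fold enrichment was 9.60, from 427 tags (387 to 469). The fold enrichments of these 3 starts had overlapping intervals. The local background was lowest at SYN3, at 43.6 tags against 71.4 at SYN1 and 67.6 at SYN2. SYN1 had a single summit in a region of 819 bp, narrow for a start, at percentile 5.74 of the widths of accessible starts.

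The plasma membrane SNAREs had lower starts by fold enrichment. At STX1A, the gene for syntaxin-1A (chr7:73718998-73720190), the strongest of 4 summits lay 9 bp inside the start, with a fold enrichment of 7.01 and 422 tags (383 to 464). This was percentile 22.6 of accessible starts by fold enrichment and 17.8 by tags. At SNAP25 (chr20:10217507-10219890) the fold enrichment was 6.33, at percentile 18.6. Its summit held 731 tags (679 to 786), at percentile 35.0, over a local background of 114.7. The SNAP25 region was the widest of the 8, with 2384 bp (percentile 98.4), and held 6 summits between 1179 bp before and 738 bp after the gene's outer end. An end of the antisense gene SNAP25-AS1 lies within 1 kb of its strongest summit, so the region cannot be assigned to either gene. That strongest summit was the one 738 bp inside, and a summit 23 bp inside followed with a fold enrichment of 5.53.

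The vesicle SNAREs, 2 paralogs that can each pair with syntaxin and SNAP25, stood at opposite ends of the order. VAMP1 (chr12:6470158-6471401) had a fold enrichment of 13.6 and 1758 tags (1677 to 1842) at a single summit 90 bp before its start, percentiles 75.6 and 85.2 of accessible starts. VAMP2 (chr17:8162323-8164078) had a fold enrichment of 4.84 and 326 tags (292 to 363), percentiles 10.3 and 12.6, with its strongest summit 29 bp before the start. The VAMP2 signal was spread over 5 summits in 1756 bp, of which the other 4 had fold enrichments of 1.88 to 2.75. The intervals of VAMP1 and VAMP2 did not overlap on either scale. These values compare places within 1 list, and they do not measure transcription.

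The calcium sensor SYT1 had the second tag count of the 8 starts, with 1185 tags (1118 to 1254) and a fold enrichment of 10.3 at a summit 106 bp before its annotated start. The region (chr12:78863500-78865531) spanned 2032 bp, at percentile 94.1 of width, with 6 summits. In the order of fold enrichment, from VAMP1 down through SYN2, SYN1, SYT1, SYN3, STX1A and SNAP25 to VAMP2, intervals of neighbours overlapped from SYN2 to SYN3 and between STX1A and SNAP25. Gaps therefore remained below VAMP1, between SYN3 and STX1A, and above VAMP2. By tag count the order was VAMP1, SYT1, SYN1, SYN2, SNAP25, SYN3, STX1A and VAMP2, and intervals overlapped between neighbours from SYN1 to SNAP25 and between SYN3 and STX1A.

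**Figure D2:**
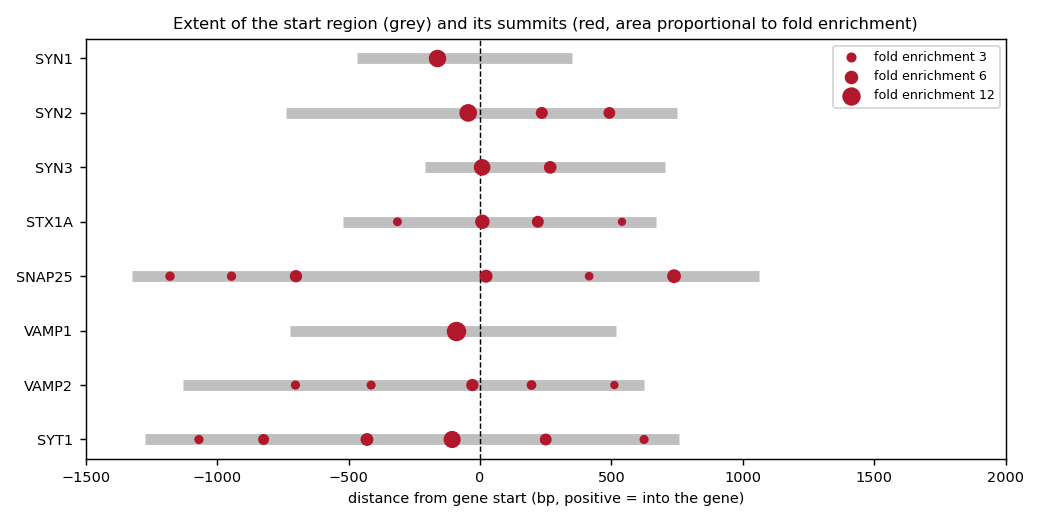
Start regions of the 8 genes as grey bars and their summits as red points, with point area proportional to fold enrichment, against the distance in bp from the gene start (positive values run into the gene). SYN1 and VAMP1 have 1 summit each, and SNAP25 and SYT1 have 6.

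In every gene but SNAP25 the strongest summit lay before the start or at most 9 bp inside it. Over all accessible starts the median position was 57 bp before the start, with quartiles at 116 and 16 bp before it. Neighbouring summits within the members' regions were spaced by a median of 272 bp (97 gaps), and those of the whole list by 270 bp.

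Beyond the starts, the windows differed in how many regions they held. The number of regions was 8 for SYN1, 5 for SYN2, 19 for SYN3, 7 for STX1A, 3 for SNAP25, 4 for VAMP1, 18 for VAMP2 and 14 for SYT1. Of the 78 regions, 8 were the starts themselves, 27 lay within 1 kb of an end of another annotated gene, and 43 lay away from gene ends. Median fold enrichment was 9.97 at the starts, 6.71 at ends of other genes and 4.97 away from ends, and the medians of the tag counts were 743, 773 and 190. These medians pool unlike windows. The VAMP2 window gave 13 of the 27 regions at ends of other genes, and SYN3 and SYT1 gave 15 and 13 of the 43 away from ends. The pooled values therefore do not rank the kinds of region within a window. The median over all regions of the list was 5.60 in fold enrichment and 238 tags. The start was the region with the highest fold enrichment of its window at SYN2, VAMP1 and SYT1. At SYN2 and VAMP1 its interval overlapped that of the next highest region. By tag count the start led its window at SYN2, SNAP25 and SYT1. Exons, introns and UTRs were not analysed here, so regions are placed only inside or outside the gene bodies.

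**Figure D3:**
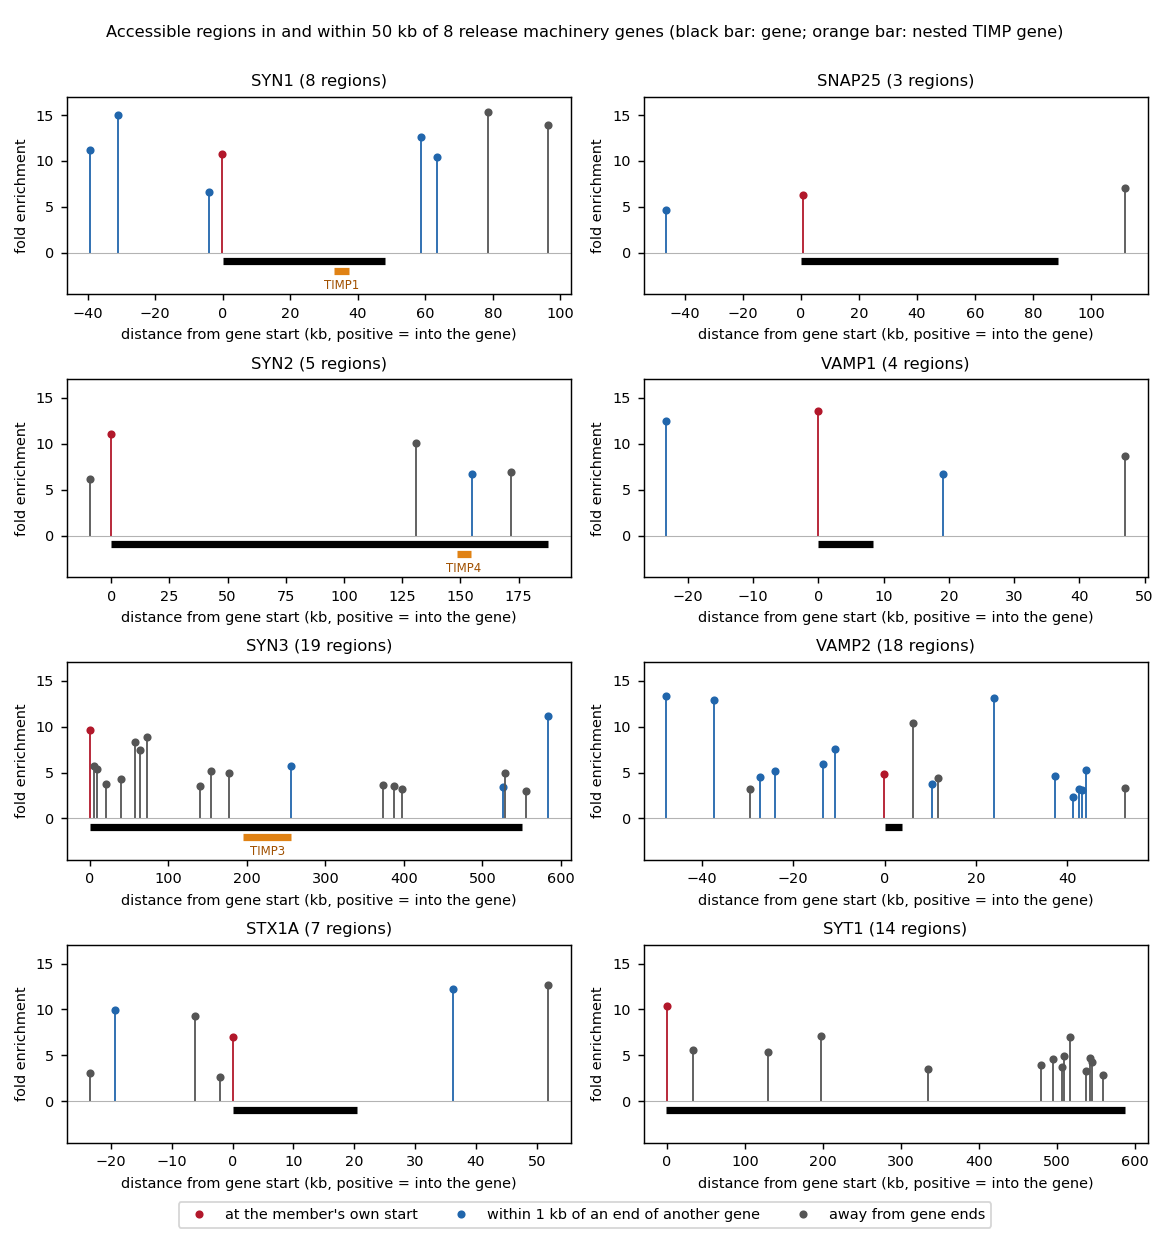
Fold enrichment of every region in the window of each gene against the distance in kb from the gene start (positive values run into the gene); red marks the start, blue regions within 1 kb of an end of another gene, and grey all others. Black bars show the gene bodies and orange bars the TIMP genes nested in the synapsin genes. SYN3 and SYT1 hold series of regions along the gene, whereas SNAP25 has none inside the gene beyond its start.

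Each human synapsin gene contains a gene for a tissue inhibitor of metalloproteinases, a secreted protein that blocks matrix-degrading enzymes, and the nested genes differed in accessibility. TIMP1, inside SYN1, had no region at its start and none in its body, and the nearest summit was 21 kb from its start. The rest of the SYN1 body was also without a summit. TIMP4, inside SYN2 on the opposite strand, had a region at its start (chr3:12158311-12159801) with a fold enrichment of 6.71 and 361 tags (325 to 400), its summit 384 bp before the TIMP4 start. TIMP3, inside SYN3, had one (chr22:32801202-32802435) with a fold enrichment of 5.75 and 364 tags (328 to 403), its summit 4 bp before the TIMP3 start. Both were weaker than the start of the synapsin gene around them by fold enrichment.

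In SYN2 the gene body of 187.6 kb held 4 regions, at percentile 46.9 among 1087 protein-coding genes within 25% of its length, whose median was also 4. Beyond the start region, no summit was found for 130.1 kb. The next region, with its strongest summit 130.8 kb inside (chr3:12134873-12135571), had a fold enrichment of 10.1 with 391 tags, beside 11.0 and 755 tags at the start. A further region 171.7 kb inside (12175529 to 12176453) had a fold enrichment of 6.96, and 1 region lay 9.12 kb before the start (11994927 to 11995579) at 6.19.

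SYN3, of 550.6 kb, held 17 regions in its body, at percentile 82.7 among 286 genes of like length (median 11). Away from gene ends 14 of them had fold enrichments from 3.21 to 8.84 (median 4.98) and 96 to 349 tags. The strongest formed a group 57.5 to 72.2 kb inside the gene: 32985849 to 32987344 at 8.84, 33000238 to 33001208 at 8.33 and 32993754 to 32994852 at 7.46. With the gene cut into 5 equal parts, the part nearest the start held 7 regions beside the start itself. The others held 3, 1, 3 and 2 in order, and the longest stretch without a summit was 127.9 kb. Outside the gene the region with the highest fold enrichment of the window, 11.1, lay at the end of FBXO7 (32474149 to 32475766).

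SYT1, of 588.0 kb, held 14 regions, all inside the gene, at percentile 63.7 among 252 genes of like length (median 12). Beyond the start 13 regions had fold enrichments from 2.92 to 7.06 (median 4.60) and 100 to 334 tags. Here the far end was the denser one, in contrast to SYN3: 9 of the 13 lay in the last of 5 equal parts of the gene, between 480.3 and 559.5 kb from the start. The strongest of these (chr12:79381095-79382410) had a fold enrichment of 7.0 and 3 summits. A stretch of 145.6 kb before this group held no summit. The highest value beyond the start, 7.06, belonged to a lone region 197.7 kb inside (79062041 to 79062726). The local background stood at the lowest value in the list, 29.2 tags, at 15 of the 78 regions, 13 of them in the SYN3 and SYT1 windows, and across the list at 19.8% of regions.

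**Figure D4:**
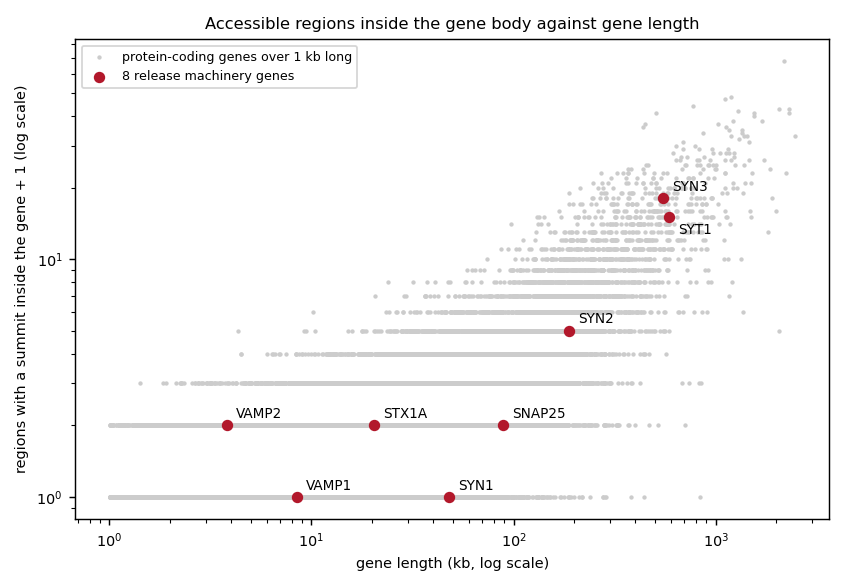
Number of regions with a summit inside the gene, plus 1, against gene length in kb for protein-coding genes over 1 kb long (grey) and the 8 genes (red), both axes logarithmic. SYN3 and SYT1 hold 17 and 14 regions, whereas SNAP25, at 88.6 kb, holds 1.

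In SNAP25 the start region was the only one inside the gene of 88.6 kb, at percentile 21.9 among 1949 genes of like length (median 2), and 87.9 kb of the gene followed without a summit. At most 1 region was found in 36.8% of genes of that length, so this was not rare. The window held only 2 other regions. A region beyond the far end of the gene, 111.5 kb from the start (chr20:10329917-10330534), had a fold enrichment of 7.04 and 353 tags, a higher fold enrichment than the start but fewer tags. The other lay 46.2 kb before the start (10171955 to 10173097) at 4.64.

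STX1A, of 20.5 kb, held no region inside beyond its start, and the regions near it lay upstream. A region 6.23 kb before the start (chr7:73725562-73726376) had a fold enrichment of 9.24 and 468 tags, above the start's 7.01 and 422. The intervals of the 2 tag counts, 427 to 512 and 383 to 464, overlapped, whereas those of the fold enrichments, 8.42 to 10.1 and 6.36 to 7.71, did not. Between them, 2.00 kb before the start, lay a weak region (73721394 to 73721816) at 2.69. Higher values stood at 51.8 kb downstream (73667376 to 73668876, fold enrichment 12.6), at the ends of BUD23 and DNAJC30 (73682771 to 73684071, 12.2) and at the end of ABHD11 (73738224 to 73739460, 9.96).

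The SYN1 window was lined by strong regions, both at ends of neighbouring genes and away from gene ends. The highest fold enrichments were 15.4 at a region away from gene ends, 78.5 kb from the start (chrX:47540852-47541635), and 15 at the end of ELK1 (47650134 to 47651399). The first of these rested on 463 tags, 7 of 8 by tag count, over a local background of 29.2 tags, the lowest value in the list. Next came 13.9 at another region away from gene ends, 96.3 kb from the start (47523234 to 47524259). It rested on 418 tags, 8 of 8 by tag count, over the same background. The region at CFP (47623539 to 47624194), 4.00 kb before the SYN1 start, had the lowest value of the window, 6.59. By tag count the ELK1 region led with 1735, followed by the region at ARAF with 1275, while SYN1 itself was the fourth of 8.

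VAMP1, a gene of 8.44 kb, had no region inside its body, because its start summit lay 90 bp outside. Its strongest neighbour was the shared end of MRPL51 and NCAPD2, 23.3 kb upstream (chr12:6492968-6494397), with a fold enrichment of 12.5 and 1807 tags (against 1758 at VAMP1). A region of 6 summits at CD27, CD27-AS1 and TAPBPL (6450596 to 6452571) had a fold enrichment of 6.71. The last region, away from gene ends at 46.9 kb, had 8.62.

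VAMP2 combined the weakest start with the most crowded window for its length. Its 3.80 kb gene body and 50 kb on either side held 18 regions, against a median of 4 in the windows of 1218 genes of like length, the highest of which held 15. Of the 18, 13 lay at ends of other genes, 7 of them at tRNA genes, of which the window contains 11. The 7 regions at tRNA genes had fold enrichments from 2.31 to 13.1 and 552 to 1622 tags. The VAMP2 start, with 326 tags, was 17 of 18 by tag count and 9 of 18 by fold enrichment. The largest count, 2412 tags with a fold enrichment of 10.4, was found 6.32 kb from the VAMP2 start, beyond its far end (chr17:8156096-8157135), between VAMP2 and the region at PER1 (8152311 to 8152663). The highest fold enrichments of the window were 13.4 at AURKB (8210101 to 8211027) and 13.1 at a pair of tRNA genes (8138284 to 8139762). Local backgrounds reached 264.8 tags in this window and were 66.6 at the VAMP2 start.

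The 50 kb limit fell among few regions. Between 45 and 50 kb from a gene there were 4 regions, with fold enrichments from 3.32 to 13.9, and between 50 and 55 kb there was 1, at 4.70. Of the 78 regions, 61 had the authors' highest score of 1000 and 11 had a score under 830. These counts stand without the shares over the whole list and only describe the windows.

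The 8 genes are a sample of a larger machinery, and 55 further genes were taken in 6 lists. A region lay at the start of 50 of the 55 (90.9%), beside 72.4% of protein-coding genes by an annotated start and 68.8% by an outer end. The outer ends stood in for the start at 8 of the 55. The lists were chosen with earlier results of these data known, so the shares are a description only. The genes with a region were 9 of 9 for the active zone and priming (scaffolds such as BSN and the priming factor UNC13A), 5 of 6 for SNARE regulators (such as NSF, the ATPase that takes SNARE complexes apart) and 9 of 11 for other vesicle proteins. They were 9 of 10 for other synaptotagmins and DOC2 proteins, 10 of 11 for SNARE paralogs and 8 of 8 for vesicle recycling. Median fold enrichments were 9.23, 8.85, 9.36, 8.03, 10.6 and 10.3 in that order, so all 6 lists, like the 8 genes, had medians below the 10.8 of all accessible starts. In all, 14 of the 50 starts were above that value. Tag counts gave another picture, with medians of 844, 1089, 466, 379, 1026 and 1169.5 in the same order. SNARE regulators, SNARE paralogs and vesicle recycling were thus above the median of 988 tags over all accessible starts, and the other lists below it.

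The 5 genes of these lists without a region at the start were CPLX1 (a complexin, which clamps the SNARE complex), SV2A and SYNGR3 (vesicle membrane proteins), DOC2A (a calcium sensor) and VAMP8 (a SNARE of other trafficking routes). SV2A did have a region at an outer end. SYNGR3 held 1 region inside the gene and DOC2A held 2, whereas CPLX1 and VAMP8 held none. For CPLX1, SYNGR3 and DOC2A the outer ends stood in for the start. The 5 highest fold enrichments were 17.7 at NAPB, which disassembles used SNARE complexes with NSF, 16.2 at RAB3C, a vesicle GTPase, 14.5 at SNAP29, 13.9 at NAPA and 13.8 at UNC13B.

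**Figure D5:**
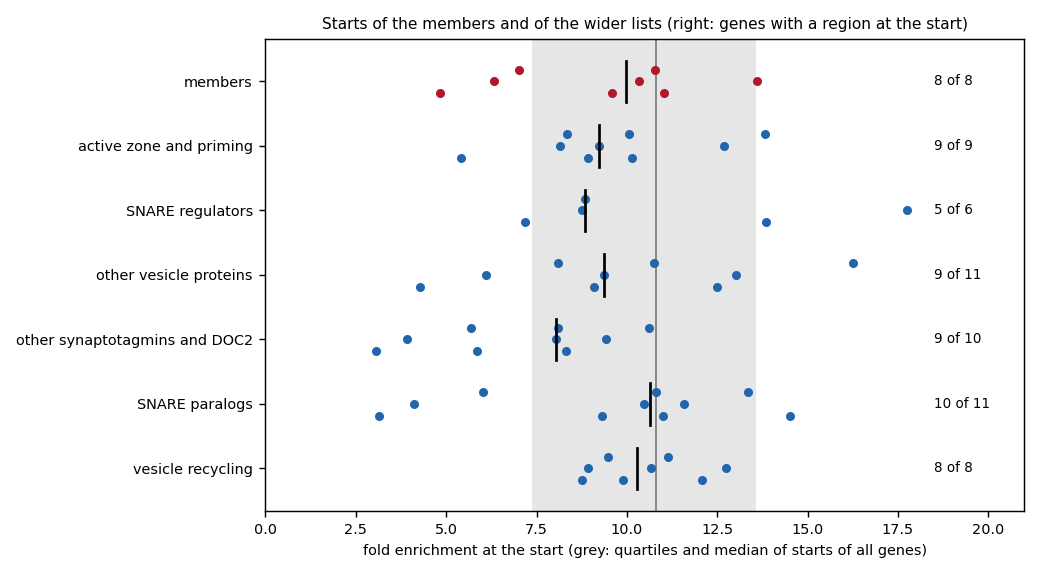
Fold enrichment at the start of each gene, by list, with the 8 genes in red, list medians as black ticks, and the grey band and line giving the quartiles and median of all accessible starts. Counts at the right give the genes with a region at the start of those in the list; every list median lies below the 10.8 of all accessible starts.

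The labelled cell type was checked on markers. A region lay at the start of 9 of 9 neuron markers and 3 of 7 pluripotent cell markers (LIN28A, DPPA4 and DNMT3B, but not POU5F1 or NANOG). It did so at 4 of 7 markers of astrocytes and oligodendrocytes (AQP4, ALDH1L1, SLC1A2 and MBP, but not GFAP, MOG or SOX10) and 0 of 5 microglia markers. Of the microglia markers, CX3CR1 did have a region at an outer end and held 2 inside the gene, and P2RY12 held 1 inside. The shares over protein-coding genes were 72.4% by an annotated start and 68.8% by an outer end. The outer ends stood in for the start at 2 neuron, 2 pluripotent cell and 3 glial markers. The fold enrichments were 3.24 to 8.69 at the neuron markers (median 5.94), 3.04 to 5.68 at the pluripotent cell markers (median 5.41) and 3.58 to 5.11 at the glial markers (median 3.93). The ranges overlapped, and all 3 medians lay below the 10.8 of all accessible starts. In bulk cells, openness in fewer cells and weaker openness in every cell cannot be told apart, and the part of other cells in any value above was not tested.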

How the data were processed

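ATAC-seq was done on 3 samples of 1 group, with 100000 cells each, per the labels' protocols. The authors deposited 1 peak list for all 3, named in the labels as an optimal set by irreproducible discovery rate. The build is hg38, per the submitters' processing notes, and the aligner and the peak caller are not given in the sources used here. Per entry, the deposited fold enrichment is a linear ratio, the −log10 p and −log10 q are the authors', and the deposited score is a whole number whose scaling is not stated. Interval bounds and summits were deposited as positions in bp and are printed counted from 1.

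Entries with equal bounds were merged into regions, represented by the summit of highest −log10 p. Tag counts were recovered from fold enrichment and −log10 p, as the whole number matching a Poisson tail with a pseudocount of 1 in the ratio, to within 0.00079 of −log10 p, while the next whole number missed by a median of 0.266. Whether these counts come from all 3 samples together is not stated, and the depth per sample is unknown. PCR tags without molecular identifiers are not independent molecules, so intervals (95%) cover counting error only. Gene bodies and promoters came from RefSeq tables of GRCh38.p14, where all 8 genes and all listed genes matched by symbol, and 6 of the 8 had a promoter window. Percentiles count ties as midpoints. The members and the lists, of which 2 genes are not reported here, were chosen with earlier results of these data known. Named are the 8 genes, the nested TIMP genes, genes with an end within 1 kb of a region's summit, and genes from the lists. From the wider lists these are genes without a region at the start, the 5 highest and a few examples. From the marker lists they are genes with and without a region at the start. No test was run, because the list holds no value per sample. Alternatives were score, window, flank, overlap, summit and length rules. Python 3.11.15, numpy 2.4.6, scipy 1.17.1, pandas 2.3.3 and matplotlib 3.10.9 were used, and the code was tested on simulated data.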

Additional observations from a re-analysis of the deposited data

How the results depend on the processing

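The count of 8 genes with a region at the start held under every alternative run (windows of 500 bp and 2 kb, a score of at least 830, any overlap of 1 bp, entries above the median fold enrichment, and either outer end), and the wider lists gave 48 to 52 of 55. The 78 regions became 49 with flanks of 10 kb and 175 with all summit entries, which follows from what each setting admits, and were 59 to 104 otherwise. Median fold enrichment at the 8 starts was 4.31, in place of 9.97, when all summits of a region were counted by their median, because flanking summits are weaker; SYN1 and VAMP1, with 1 summit each, did not move. At SNAP25 the 500 bp window took another summit, at 5.53. The percentile of regions inside SYN1 rose from 7.43 to 30.2, and that of VAMP1 from 21.9 to 58.5, when 1 kb beyond both gene ends was counted, an alternative chosen after seeing the data, as was taking the summit of highest fold enrichment, which left the median at 9.97. VAMP2 fell from 76.4 to 37.0 with regions above the median fold enrichment. Its summits inside the gene had fold enrichments of 1.88 and 2.75, under the median of 3.86 over all summit entries. Its strongest summit, at 4.84, lay 29 bp outside the gene. Of the single-gene values under alternatives, 28 moved higher and 22 lower, beyond the limit used for each kind of value (the counting interval for a fold enrichment, 1.5 times for a number of regions, and the binomial interval over like-length genes for a percentile), while 45 were equal, 14 slightly higher and 19 slightly lower. No paired analysis was possible because there is only 1 group, whose 3 samples share a single peak list, and no sample could be left out, since none has values of its own.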
